A study of Mus musculus with 9 samples.

Results

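Frizzled genes encode the cell-surface receptors for Wnt proteins, and all 10 of the mouse genes, Fzd1 to Fzd10, were present by name among the 32137 genes of the deposited tables. Members were matched by gene name, and no measured value entered that rule. The filter on low counts passed 9 of them, and the remaining member, Fzd10, was described by its counts only. RNA had been sequenced in 9 libraries of cells sorted from differentiated bile duct organoids, which are cultures of biliary epithelial cells grown in a gel. The organoids came from 1 male mouse of mixed genetic background with the genotype Axin2CreERT2+/-; R26-LSL-tdTom+/-. In these cells a tamoxifen-activated Cre recombinase is made under the control of Axin2, a Wnt target gene, and Cre switches on the red reporter tdTomato. Organoids of every group were expanded for 2 to 4 days, differentiated for 11 days, and kept for the last 24 h in 3 uM dexamethasone and 500 nM 4-hydroxytamoxifen (4-OHT). The untreated group held tdTomato-negative cells of organoids without R-spondin 1 (Rspo1). The Rspo1-negative and Rspo1-positive groups held tdTomato-negative and tdTomato-positive cells of organoids given 100 ng/ml Rspo1 in those 24 h. A tdTomato-positive sort from organoids without Rspo1 was not among the groups. Each group had 3 libraries, 1 each from passages 5, 6 and 10 of the line, so a passage was 1 round of culture. The p-values between groups below therefore measure the spread between cultures of 1 animal, not between animals. Those between passages rest on the 3 groups within each round, and no spread between rounds of the same passage enters them.

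A Frizzled receptor binds a Wnt through its extracellular cysteine-rich domain and passes the signal to Dishevelled proteins in the cell. With the co-receptors Lrp5 and Lrp6 it stabilises beta-catenin, and with other partners it sets planar cell polarity. The ubiquitin ligases Znrf3 and Rnf43 remove Frizzled proteins from the cell surface, and R-spondins, bound to Lgr4 or Lgr5, take those ligases out of action. R-spondin 1 is a usual component of the medium in which liver and bile duct organoids are expanded. By sequence the family falls into Fzd1, Fzd2 and Fzd7, into Fzd5 and Fzd8, into Fzd4, Fzd9 and Fzd10, and into Fzd3 and Fzd6. Transcript counts say nothing of the amount of receptor at the surface.

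In the GRCm38 annotation all 10 members were protein-coding, and Fzd1, Fzd2, Fzd7, Fzd8, Fzd9 and Fzd10 each had a single exon. Fzd5 lay on chromosome 1 at 64730558 to 64737751 on the minus strand with 2 exons, and Fzd9 on chromosome 5 at 135248938 to 135251230 on the minus strand with 1 exon. Fzd2 lay on chromosome 11 at 102604396 to 102608058 with 1 exon, and Fzd1 on chromosome 5 at 4753839 to 4758035 with 1 exon. Fzd4 lay on chromosome 7 at 89404355 to 89413134 with 2 exons, and Fzd6 on chromosome 15 at 39006034 to 39038188 with 9 exons. Fzd7 lay on chromosome 1 at 59482424 to 59486955 with 1 exon. Fzd3, with 8 exons over chromosome 14 from 65192449 to 65262463, had by far the longest transcript, at 12734 bases and 40.3% GC. Fzd9 had the shortest, at 2293 bases and 62.2% GC.

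Sequence just upstream of the start was available from RefSeq (GRCm38.p6) for 6 members, Fzd1, Fzd4, Fzd5, Fzd7, Fzd9 and Fzd10. The stretches of 3 members are shown, each 5′ to 3′ on the strand of its gene and ending at the RefSeq or the GENCODE start, whichever lies further upstream: Fzd5 and Fzd9 because their transcripts changed in opposite directions with Rspo1, and Fzd7 because it alone held the motif searched for. That motif was the core to which the TCF/LEF factors of the Wnt pathway bind, taken as CTTTGAA, its variant CTTTGAT, or the related forms CTTTGTA and likewise CTTTGTT, on either strand, and its match is in capitals.
Fzd5, chr1:64737752-64738000, minus strand: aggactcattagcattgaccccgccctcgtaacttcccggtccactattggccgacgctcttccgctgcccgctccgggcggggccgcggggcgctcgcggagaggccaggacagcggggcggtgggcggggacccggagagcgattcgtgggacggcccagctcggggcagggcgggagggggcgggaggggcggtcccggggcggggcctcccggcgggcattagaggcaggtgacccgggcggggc
Fzd9, chr5:135251231-135251297, minus strand: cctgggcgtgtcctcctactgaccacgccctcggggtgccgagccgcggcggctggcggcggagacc
Fzd7, chr1:59481897-59482146, plus strand: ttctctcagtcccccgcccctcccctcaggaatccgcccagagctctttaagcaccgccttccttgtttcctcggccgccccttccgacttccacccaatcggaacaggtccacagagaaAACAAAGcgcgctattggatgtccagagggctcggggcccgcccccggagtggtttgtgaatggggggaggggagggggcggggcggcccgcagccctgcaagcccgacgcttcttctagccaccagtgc
In the 250 bases before the RefSeq start, Fzd7 held 1 match, read as AACAAAG and beginning 130 bases upstream. Fzd1, Fzd4, Fzd5, Fzd9 and Fzd10 held no such letters in that window. Of the 32851 promoters in the table, 4874 (14.8%) held at least 1 match. A match describes the letters and is no evidence of binding. The stretches shown were 76.3% GC for Fzd5, 77.6% for Fzd9 and 65.2% for Fzd7, against a median of 52.4% over the 250-base windows of the table. The Fzd9 stretch had only 67 bases, so its value is not like for like with that median.

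Libraries held 23423979 to 37351448 counts, of which 4960 to 9946 fell on the Frizzled genes. The labelled cell type was checked against markers, and the 7 biliary genes, among them Krt19 and Epcam, were all detected and summed to 5690 to 8702 CPM (counts divided by the TMM-scaled library size). The 6 mesenchymal genes summed to at most 0.95 CPM and the 5 endothelial genes to at most 0.812 CPM, and Lum and Cdh5 were at 0 in every library. The 6 hepatocyte genes summed to 164 to 545 CPM, mostly from Ttr, and Cyp3a11, Cps1 and Tat had at most 4 counts in any library. The 5 immune genes summed to 45.6 to 68.1 CPM, nearly all from Csf1r and Cd68. Ptprc, Cd3e and Cd79a had at most 5 counts in any library. Axin2, which drives the Cre, was at 3.01 ± 2.56 CPM (SD, n = 3) in the untreated group, 88.7 ± 40.6 in the Rspo1-negative group and 106 ± 42.3 in the Rspo1-positive group. The 6 cell-cycle genes, among them Mki67 and Top2a, summed to 32.4 to 86.2 CPM in untreated, 81.2 to 138 in Rspo1-negative and 360 to 616 in Rspo1-positive libraries. The 6 genes induced by tissue dissociation, among them Fos and Fosb, summed to 184 to 505, 218 to 417 and 429 to 1283 CPM in the same order. The part of these lists in the Frizzled results was not tested. The Rspo1-negative libraries stood apart in the GC content and length of the transcripts counted. Across 17001 genes, the Spearman correlation of transcript GC content with the log2 fold change was 0.496 for Rspo1-negative against untreated and -0.504 for Rspo1-positive against Rspo1-negative, but -0.0134 for Rspo1-positive against untreated. With transcript length it was -0.307, 0.311 and 0.00614 in the same order. Genes are not independent replicates, and these values describe the libraries. Results for the Rspo1-negative group are therefore also given from a fit that removes a smooth trend in GC content and length from each library. In bulk libraries fewer cells of a type and less RNA per cell cannot be told apart.

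Per length, the organoid cells carried a few Frizzled transcripts at moderate levels and the rest at low levels. On the authors' FPKM scale (fragments per kilobase of transcript, scaled by 1 factor per library), which allows genes to be compared, Fzd5 was first in the untreated group at 18.1 ± 2.87 (SD, n = 3). Fzd1 followed at 12.8 ± 1.28 and Fzd6 at 9.35 ± 3.80, and the ranges of these latter genes overlapped. Fzd7, a Frizzled receptor of intestinal stem cells, was at 6.16 ± 0.418, below all Fzd6 values. Then came Fzd4 at 3.78 ± 1.80, Fzd8 at 1.67 ± 0.558, Fzd2 at 0.893 ± 0.337 and Fzd3 at 0.791 ± 0.155, and each of these overlapped its neighbour in the order. Fzd9 at 0.225 ± 0.0806 lay below Fzd3 without overlap. Fzd10 was at 0.0332 ± 0.0423, from counts of 2, 8 and 0 at passages 5, 6 and 10. Its counts were 11, 6 and 2 in the Rspo1-positive group and 4, 6 and 1 in the Rspo1-negative group, too few to compare. Among the tested genes, the mean FPKM of Fzd1 over all libraries stood at the percentile 70.0 and that of Fzd9 at 17.3.

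**Figure D1:**
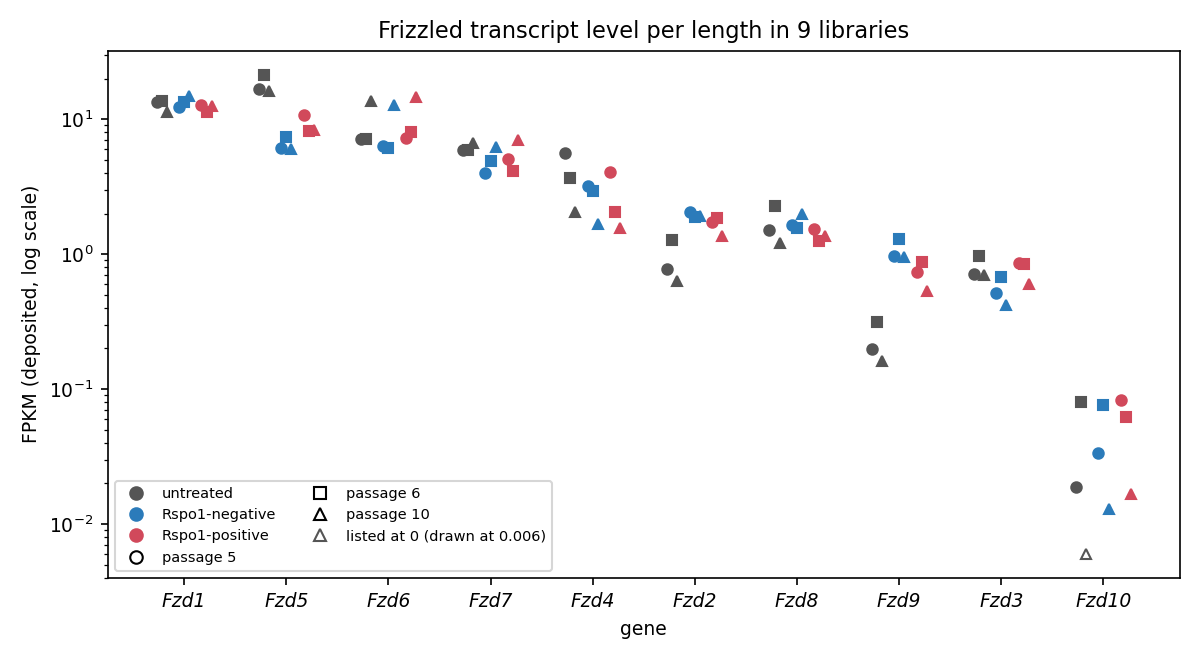
Deposited FPKM (log axis) of the 10 Frizzled genes in each of the 9 libraries, ordered by their median, with colour for the group and marker shape for the passage. Fzd1 lies between 11.3 and 14.9 in all libraries, Fzd5 spans 6.04 to 21.4 and Fzd9 0.160 to 1.29, and the library in which Fzd10 is listed at 0 is drawn as an open triangle at the foot of the axis.

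The order at the top differed with Rspo1. Fzd5 was the most abundant Frizzled transcript in each of the 3 untreated libraries, and ranked between 2 and 4 in the 6 Rspo1 libraries. In the Rspo1-positive group Fzd1 came first at 12.2 ± 0.754 FPKM, Fzd6 next at 10.01 ± 4.09 and Fzd5 at 9.08 ± 1.41, and neighbours in this order overlapped. In the Rspo1-negative group the values were 13.6 ± 1.30, 8.43 ± 3.75 and 6.498 ± 0.743, again with overlap between neighbours. The ratio of Fzd5 to Fzd1 was 1.25, 1.56 and 1.42 in untreated libraries of passages 5, 6 and 10. It was 0.838, 0.719 and 0.674 in Rspo1-positive and 0.494, 0.546 and 0.405 in Rspo1-negative libraries. The 3 groups did not overlap in this ratio, which carries no GC and length correction. With that trend removed from the counts, Fzd5 differed between the Rspo1 groups by 0.31 on the log2 scale (adjusted p 0.238, edgeR). Lower in the order, Fzd9 reached 0.716 ± 0.175 FPKM in the Rspo1-positive and 1.07 ± 0.189 in the Rspo1-negative group. In the latter it stood above Fzd3 (0.538 ± 0.133) without overlap. Fzd9 is at percentile 97.8 of GC content and Fzd3 at 6.82, and these FPKM carry no GC and length correction. The part of that trend in the order of Fzd9 and Fzd3 was not tested.

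Fzd5, a receptor required for Paneth cell maturation in the gut, was lower in both Rspo1 groups. It was counted at 118, 151 and 113 CPM in the untreated libraries of passages 5, 6 and 10. The Rspo1-positive libraries had 74.6, 56.4 and 59.8 CPM and the Rspo1-negative libraries 40.8, 50.9 and 42.0 CPM. Each Rspo1 library lay below every untreated library. Fzd5 fell by 1.0 on the log2 scale (SE 0.162) in Rspo1-positive against untreated cells, 2.00-fold, with an adjusted p of 0.00527 (quasi-likelihood test of edgeR, Benjamini-Hochberg over 17011 genes). In Rspo1-negative against untreated cells it fell by 1.51 (SE 0.164), 2.86-fold, with an adjusted p of 0.000993 by edgeR. Both calls held in all 13 alternative settings, and the fit with the GC and length trend removed gave -1.06 and -1.36. These comparisons share the untreated libraries. Of the exon bases of Fzd5, 17.8% lie opposite Gm38058, an antisense gene with 137 to 517 counts per library where Fzd5 had 993 to 4507, and the strand setting of the counting is not given in the sources used here. Gm38058 itself changed by -0.86 and -1.46 (adjusted p 0.0214 and 0.00125, edgeR), so the counts of these genes moved together and the part of one in the other was not tested.

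**Figure D2:**
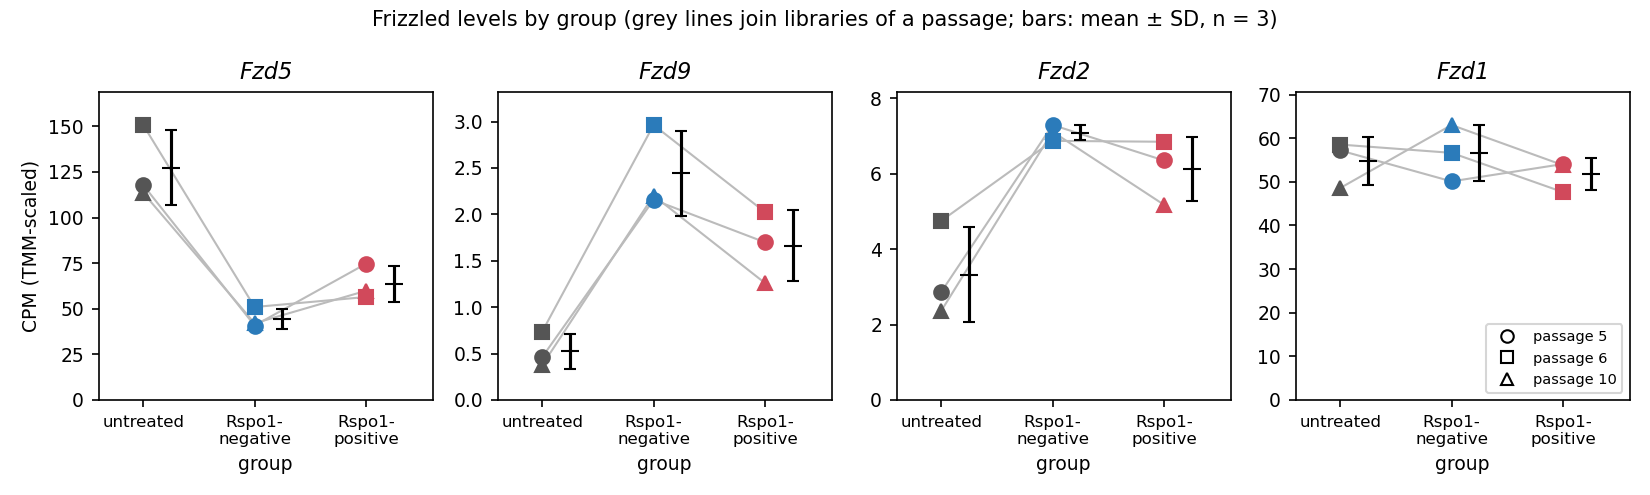
TMM-scaled CPM (linear axes from 0) of Fzd5, Fzd9, Fzd2 and Fzd1 in the 3 groups, with 1 point per library, grey lines joining libraries of the same passage, and black bars for mean ± SD (n = 3). Fzd5 is at least 113 CPM in untreated libraries and at most 74.6 in Rspo1 libraries, Fzd9 and Fzd2 are higher in all Rspo1 libraries, and the Fzd1 groups overlap.

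Fzd9 and Fzd2 were at low levels and higher with Rspo1. Fzd9, which is known from bone and hippocampus, had 15, 22 and 13 counts in the untreated libraries of passages 5, 6 and 10. It had 69, 60 and 45 counts in the Rspo1-positive and 81, 72 and 52 in the Rspo1-negative libraries. The Rspo1 libraries all lay above the untreated ones. Fzd9 rose from 0.524 ± 0.189 CPM (SD, n = 3) to 2.44 ± 0.453 with Rspo1 in tdTomato-negative cells, a rise of 2.22 on the log2 scale (SE 0.352, adjusted p 0.00258, edgeR) that was called in all 13 alternatives, and 1.81 with the GC and length trend removed. In the Rspo1-positive group it rose to 1.66 ± 0.384 CPM, a rise of 1.66 on that scale (SE 0.35, adjusted p 0.0212, edgeR). That second call was lost in 5 of 13 alternatives, in which the log2 fold change stayed between 1.46 and 1.68. It was lost without the Rspo1-positive library of passage 5 (adjusted p 0.0598, edgeR) or 6 (0.100), without the untreated library of passage 5 (0.0808) or 10 (0.0555), and with only the 6 libraries compared (0.0563). With passage as a block its adjusted p was 0.00210 by edgeR.

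Fzd2, which acts in heart and palate development, stood at 2.86, 4.75 and 2.36 CPM in the untreated libraries of passages 5, 6 and 10. Rspo1-positive libraries had 6.35, 6.85 and 5.18 CPM and Rspo1-negative libraries 7.29, 6.87 and 7.11 CPM, all above the untreated ones. The rise in the Rspo1-negative group was 1.10 on the log2 scale (SE 0.267, adjusted p 0.0167, edgeR). It lost its call in 3 of 13 alternatives: without the Rspo1-negative library of passage 5 (1.08, adjusted p 0.0502, edgeR), without the untreated library of passage 5 (1.002, 0.0609), and with the GC and length trend removed (0.85, 0.0925). In the Rspo1-positive group the log2 fold change was 0.88 (SE 0.266) and missed the threshold, with an adjusted p of 0.0927 by edgeR. It passed with passage as a block (0.91, adjusted p 0.0164, edgeR), in DESeq2 (0.89, adjusted p 0.0235), and without the untreated library of passage 6 (1.23, adjusted p 0.0155, edgeR), in which Fzd2 was highest of the 3 untreated. In the block fit with the GC trend removed it also passed (0.88, adjusted p 0.0180, edgeR).

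Counted over the family, 2 of the 9 tested members were called in Rspo1-positive against untreated cells (Fzd9 higher, Fzd5 lower), where 5.21% of all 17011 genes were called. In Rspo1-negative against untreated cells 3 members were called (Fzd2 and Fzd9 higher, Fzd5 lower), where 21.9% of all genes were. The median log2 fold change of the 9 members was -0.08 and -0.18, against -0.01 and -0.02 over all genes. With passage as a block, 5 members were called in the Rspo1-negative comparison, where 35.5% of all genes were. The additions were Fzd3 (-0.60, adjusted p 0.0152, edgeR) and Fzd4 (-0.50, adjusted p 0.0398, edgeR). With the GC correction added to the block, Fzd3 was called with the opposite sign (0.51) and Fzd4 was at -0.07 and not called. The median over the 9 members in that comparison was 0.017 with the GC correction and -0.0069 with block and GC correction. The 2 groups did not overlap in CPM for 3 members in the Rspo1-positive comparison (23.2% of all genes) and for 4 in the Rspo1-negative one (36.3%). Of the genes called in the Rspo1-negative comparison, 36.5% were higher, against 49.5% with upper-quartile scaling and 50.5% with the GC and length trend removed.

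**Figure D3:**
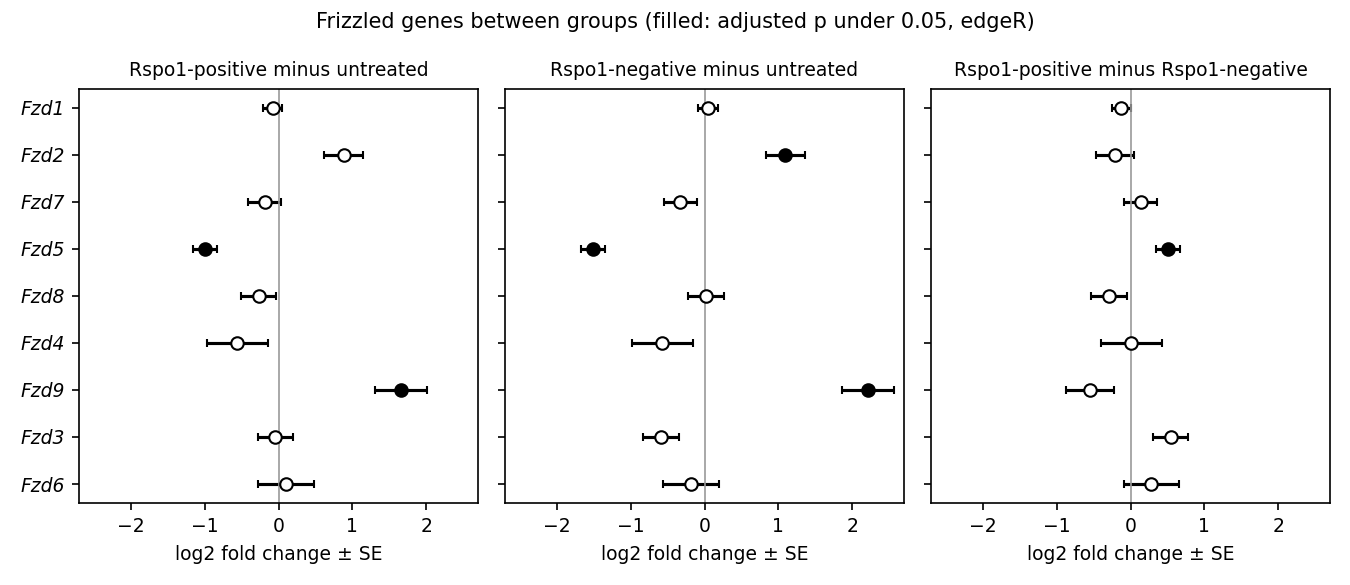
Log2 fold changes (points, with SE as bars) of the 9 tested Frizzled genes in the 3 group comparisons, from edgeR, with filled points for an adjusted p under 0.05. Fzd5 is filled in all panels, at -1.0, -1.51 and 0.51, Fzd9 in the first panels at 1.66 and 2.22 and Fzd2 in the Rspo1-negative panel at 1.10, while Fzd1 lies within 0.13 of 0 in each.

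The other members showed no called group difference in the fit without passage. Fzd1, close to Fzd2 and Fzd7 in sequence, was the steadiest. It had 57.2, 58.6 and 48.6 CPM in untreated, 54.1, 47.7 and 53.8 in Rspo1-positive and 50.1, 56.7 and 63.0 in Rspo1-negative libraries of passages 5, 6 and 10. Its log2 fold changes were -0.08 (SE 0.132) and 0.05 (SE 0.132) against untreated, and the groups overlapped. Fzd7 had 27.1, 27.4 and 30.6 CPM in untreated libraries. Rspo1-positive libraries had 23.1, 18.7 and 32.8 CPM and Rspo1-negative libraries 17.6, 22.1 and 28.2, again overlapping. Fzd8, the closest relative of Fzd5, had 9.08, 13.9 and 7.40 CPM in untreated, 9.23, 7.56 and 8.42 in Rspo1-positive and 9.58, 9.30 and 12.0 in Rspo1-negative libraries. Its log2 fold changes of -0.27 (SE 0.240) and 0.02 (SE 0.240) were not called, so Fzd5 was called in comparisons where its relative was not, although no test of the difference between the genes was made.

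Fzd3, a receptor of axon guidance and planar polarity, had 9.14, 12.6 and 9.01 CPM in untreated libraries of passages 5, 6 and 10. It had 11.1, 10.8 and 7.95 CPM in Rspo1-positive and 6.39, 8.68 and 5.34 in Rspo1-negative libraries. All Rspo1-negative values lay below the untreated ones, and the log2 difference was -0.59 (SE 0.239, adjusted p 0.101, edgeR). The direction depended on the correction for GC content and length: with the GC and length trend removed the value was 0.50 (adjusted p 0.180, edgeR), and 0.51 (adjusted p 0.0416) in the block fit with that correction, against -0.60 in the block fit without it. Fzd3 is among the lowest in GC content (percentile 6.82 of the tested genes) and longest in transcript (percentile 99.3), the parts of GC content and length were not told apart, and no direction is given for it.

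Between tdTomato-positive and tdTomato-negative cells of the same Rspo1-treated organoids, 1 of 9 members was called, where 24.3% of all genes were. That member was Fzd5, 1.43-fold higher in positive cells, with 63.6 ± 9.69 against 44.6 ± 5.53 CPM (SD, n = 3). The log2 fold change was 0.51 (SE 0.162, adjusted p 0.0417, edgeR) and the difference had the same sign at each of the 3 passages, at 0.87, 0.15 and 0.51. The call was lost in 9 of 13 alternatives. With the GC and length trend removed the value was 0.31 (adjusted p 0.238, edgeR). Leaving out the Rspo1-negative library of passage 5 gave 0.45 (adjusted p 0.134, edgeR) and that of passage 10 gave 0.42 (0.174). Leaving out the Rspo1-positive library of passage 5, 6 or 10 gave 0.38 (adjusted p 0.169, edgeR), 0.59 (0.0599) and 0.56 (0.0749). With passage as a block, 3 members were called, where 38.9% of all genes were: Fzd5 (0.52, adjusted p 0.0178, edgeR), Fzd3 (0.56, 0.0188) and Fzd6 (0.29, 0.0476). With the GC correction added to the block Fzd3 turned to -0.61 (adjusted p 0.0194, edgeR), Fzd4 was at -0.57 (0.0196), Fzd6 at 0.02 (0.909) and Fzd5 at 0.31 (0.128), so none of the 3 calls of the block fit kept both its call and its sign. Fzd9 was lower in the positive cells at each passage, by -0.55 in log2 fold change (SE 0.325, adjusted p 0.239, edgeR), and did not pass the test. The groups did not overlap for 4 members, Fzd2, Fzd5, Fzd8 and Fzd9, against 45.2% of all genes, and the median over members was 0.01 against 0.03 over all genes. Of all genes called, 59.8% were higher in positive cells, against 51.6% with upper-quartile scaling and 40.5% with the GC and length trend removed.

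The makeup of the Frizzled transcript pool followed from these values. The summed FPKM of the 10 members was 53.9 ± 2.56 (SD, n = 3) in untreated, 43.8 ± 4.81 in Rspo1-positive and 41.5 ± 4.93 in Rspo1-negative libraries, and the lowest untreated library (52.2) was above the highest Rspo1 library (48.1). Fzd5 made up 33.5% ± 3.70 of the pool in untreated, 20.8% ± 3.21 in Rspo1-positive and 15.8% ± 2.73 in Rspo1-negative libraries. The share of Fzd1 was 23.8% ± 2.10, 27.9% ± 1.80 and 32.8% ± 0.865 in the same order. Fzd9 went from 0.413% ± 0.128 to 1.68% ± 0.588 and 2.61% ± 0.585, and Fzd2 from 1.64% ± 0.538 to 3.84% ± 0.990 and 4.76% ± 0.706. Fzd1, Fzd5 and Fzd6 together, a trio chosen after their values were seen, held 66.5% to 78.4% of the pool in every library. These are shares of 1 sum, so a fall in one gene raises the others, and no test was made on them. They carry no GC and length correction, and the part of that trend in the Rspo1-negative sums and shares was not tested.

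**Figure D4:**
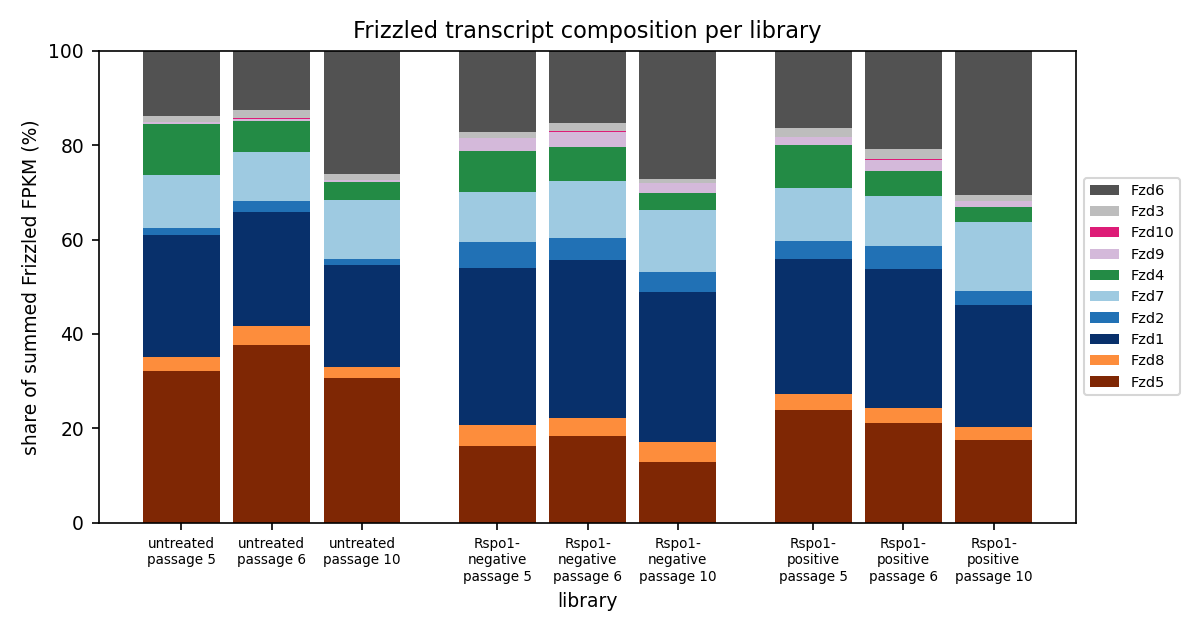
Share of the summed Frizzled FPKM (%, bars from 0 to 100) held by each of the 10 genes in each of the 9 libraries, grouped by treatment and sort. Fzd5 holds 30.6% to 37.7% of the bar in untreated libraries and 12.9% to 23.9% in Rspo1 libraries, and Fzd6 takes 26.1% to 30.6% at passage 10.

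Between passages the called members were Fzd6 and Fzd4. Fzd6, a planar polarity receptor known for hair patterning, was higher at passage 10 in all groups. At passages 5, 6 and 10 it had 31.4, 31.5 and 60.4 CPM in untreated, 31.8, 34.8 and 65.6 in Rspo1-positive and 26.7, 26.6 and 55.5 in Rspo1-negative libraries. Every passage 10 library lay above every earlier one. In a fit of passage with group as a factor, Fzd6 rose by 1.01 on the log2 scale from passage 5 to 10 (SE 0.106, 2.02-fold, adjusted p 0.000516, edgeR) and by 0.97 from passage 6 to 10 (SE 0.106, adjusted p 0.000800, edgeR). Both calls held in all 10 alternatives.

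Fzd4, best known from the blood vessels of the retina, was lower at later passages. At passages 5, 6 and 10 it had 38.4, 25.1 and 14.0 CPM in untreated, 27.6, 13.9 and 10.9 in Rspo1-positive and 21.0, 19.7 and 11.4 in Rspo1-negative libraries. In each group the order of the values was the same, and passages 5 and 10 did not overlap. Fzd4 fell by 1.24 on the log2 scale from passage 5 to 10 (SE 0.172, adjusted p 0.00220, edgeR), and this call held in all 10 alternatives. From passage 6 to 10 it fell by 0.67 (SE 0.172, adjusted p 0.0361, edgeR), a call lost in 5 of 10 alternatives. It was lost without the untreated library of passage 6 (-0.64, adjusted p 0.0592, edgeR) or 10 (-0.57, 0.162), the Rspo1-negative library of passage 6 (-0.55, 0.0807) or 10 (-0.76, 0.0702), and the Rspo1-positive library of passage 10 (-0.72, 0.101). From passage 5 to 6 it stood at -0.57 (SE 0.169, adjusted p 0.115, edgeR). Fzd4 was also lower in the Rspo1 groups at each matched passage, with log2 fold changes of -0.56 (SE 0.412) and -0.57 (SE 0.413) that were not called (adjusted p 0.564 and 0.354, edgeR). With passage as a block these became -0.55 (adjusted p 0.0545, edgeR) and -0.50 (0.0398), and with the GC correction added -0.64 (0.0113) and -0.07 (0.754).

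**Figure D5:**
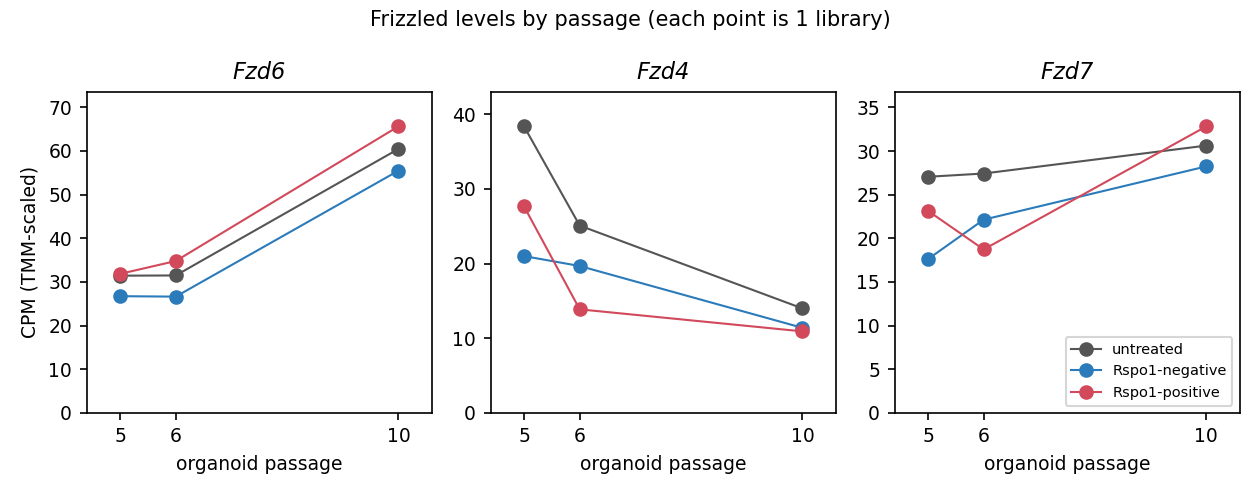
TMM-scaled CPM (linear axes from 0) of Fzd6, Fzd4 and Fzd7 at passages 5, 6 and 10, with 1 point per library and lines joining the libraries of a group. Fzd6 is between 55.5 and 65.6 CPM at passage 10 and at most 34.8 before, Fzd4 is at most 14.0 at passage 10 and at least 21.0 at passage 5, and Fzd7 is highest at passage 10 in each group.

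Over the family, 2 of 9 members were called between passages 5 and 10 (Fzd6 higher, Fzd4 lower), where 9.07% of all genes were, and the same 2 between passages 6 and 10, where 8.45% were. None was called between passages 5 and 6, where 2.49% were. In that comparison 1 member, Fzd4, had an unadjusted p under 0.05 (0.00626, edgeR), and DESeq2 called 1. The median over the 9 members was 0.09 from passage 5 to 6, -0.12 from 5 to 10 and -0.21 from 6 to 10, against 0.00, 0.01 and 0.00 over all genes. The passages did not overlap for 0 members (5 to 6, 8.83% of all genes), 3 members (5 to 10, 16.7%) and 2 members (6 to 10, 14.5%). From 6 to 10 these were Fzd6 and Fzd7, and from 5 to 10 Fzd4, Fzd6 and Fzd7. Fzd7 was 0.45 higher at passage 10 than at 5 (SE 0.153, adjusted p 0.0854, edgeR). Other measures moved with passage. From passage 5 to 10, 3 of 6 tested Wnt target genes were called higher and 0 lower by edgeR, Axin2 (1.48), Sp5 (1.45) and Tcf7 (0.88). Of 8 tested planar polarity genes 2 were called higher and 0 lower, Vangl1 (0.47) and Celsr2 (0.62). Lgr5 was called lower (-1.67), and of 9 tested Wnt ligands 1 was called higher and 2 lower. The 6 dissociation genes summed to 417 to 1283 CPM at passage 5, 195 to 429 at passage 6 and 184 to 653 at passage 10. Of these genes 5 were called lower at passage 10 than at 5 by edgeR. The 3 genes that collect reads of ribosomal RNA held 0.499% to 2.38% of counts at passage 5, 5.37% to 20.9% at passage 6 and 1.66% to 10.1% at passage 10. The part of these measures in the passage differences of Frizzled genes was not tested, and a passage cannot be told apart from the culture round it was.

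Between members, the closest levels over the 9 libraries were those of Fzd2 and Fzd9 (Pearson r 0.961 on log2 CPM), and the most opposed those of Fzd5 and Fzd9 (-0.867). Among 11660 genes of mean log2 CPM of at least 2, those most like Fzd5 were Rnf103 (r 0.992), Sptlc2 (0.990) and Slc44a1 (0.981). Those most like Fzd2 were Dhrs4 (0.970), Haus8 (0.967) and Wrap53 (0.966), and those most like Fzd9, among 11661, were Xrcc1 (0.978), Ltbp4 (0.969) and 1700066B19Rik (0.969). For Fzd6 they were Vash2 (0.985), Arrdc4 (0.970) and Klhl5 (0.965), and for Fzd4 Castor2 (0.967), Kctd11 (0.960) and Plekha2 (0.952). For Fzd3 they were Exoc6b (0.986), Camk1d (0.976) and Fbxo32 (0.976), for Fzd7 Atf6 (0.959), Ppp1r15b (0.945) and Bend3 (0.933), and for Fzd8 Polr2m (0.976), Vcp (0.936) and 1700022I11Rik (0.902). For Fzd1, which varied least, they were Fam20b (0.857), Gm26816 (0.855) and Ryk (0.843), a Wnt co-receptor. The 9 points share their group, passage, library depth and base composition, and the values are descriptions.

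Genes that act on or with the receptors were read from lists by role. Of the turnover genes, 4 of 5 were tested. In Rspo1-positive against untreated cells 3 were higher and 0 lower by edgeR: Lgr5 (log2 fold change 4.82), Znrf3 (0.86) and Rnf43 (0.78). In Rspo1-negative cells 2 were higher, Lgr5 (3.97) and Rnf43 (0.80), and 1 lower, Lgr4 (-1.22). The medians were 0.82 and 0.36, against -0.01 and -0.02 over all genes. Lgr4 in Rspo1-positive cells was at -0.70 (adjusted p 0.0717, edgeR) in the fit without passage, and passed with passage as a block (-0.66, adjusted p 0.0190, edgeR). Between the Rspo1 groups Znrf3 was 0.95 higher in the positive cells (adjusted p 0.00909, edgeR), and with passage as a block Lgr4 was called there too (0.55, adjusted p 0.0204, edgeR). Adding the GC correction to the block left 1 turnover gene called there.

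All 6 co-receptors were tested. None was called in Rspo1-positive against untreated cells. In Rspo1-negative cells Lrp5 rose by 0.68 and Lrp6 fell by 1.21 on the log2 scale (adjusted p 0.0114 and 0.00400, edgeR), and with the GC and length trend removed these became 0.88 and -0.61. Lrp6 was 0.89 higher in positive than in negative Rspo1 cells (adjusted p 0.0135, edgeR), which was not called with the trend removed (0.21, adjusted p 0.413, edgeR). In the block fit Ror1 (0.73, adjusted p 0.0259, edgeR) was also higher and Lrp5 (-0.41, 0.0368) lower in that comparison. No co-receptor was called higher there once the GC correction was added to the block, and 1 was lower.

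Of the listed Wnt ligands, 16 were in the files and 9 were tested. In Rspo1-positive against untreated cells 0 were higher and 2 lower, Wnt4 (-1.20) and Wnt7a (-0.75), and with passage as a block Wnt5b (1.19) was also higher and Wnt7b (-0.53) lower. In Rspo1-negative cells 1 was lower, Wnt16 (-2.36), from at most 60 counts in a library. It was not called with the GC and length trend removed (-1.84, adjusted p 0.145, edgeR), and with passage as a block Wnt5b (1.55, adjusted p 0.00226, edgeR) and Wnt9a (0.92, 0.0483) were called higher there. Adding the GC correction to the block left 1 ligand called higher. Between the Rspo1 groups 3 were lower in positive cells, Wnt4 (-0.94), Wnt7a (-0.78) and Wnt7b (-0.69), and none was called with the trend removed (-0.82, -0.54 and -0.42, adjusted p 0.102, 0.0851 and 0.143, edgeR). In the block fit Wnt5a was higher in positive cells (0.55, adjusted p 0.0194, edgeR). No ligand was called higher there once the GC correction was added to the block, and 2 were lower. Of the antagonists, 5 of 14 in the files passed the filter, and 1 was called against untreated, Shisa3, which retains Frizzled inside the cell (-1.31 in Rspo1-negative cells, adjusted p 0.00798, edgeR). The block fit also put Shisa3 0.82 higher in positive than in negative Rspo1 cells (adjusted p 0.0232, edgeR). The secreted Frizzled-related genes Sfrp1, Sfrp2, Sfrp4, Sfrp5 and Frzb had at most 9 counts in any library. Shisa2, of the same family as Shisa3, was at 2.05 and 1.62 (adjusted p 0.0677 and 0.0617, edgeR) and passed with passage as a block (2.21 and 1.71, adjusted p 3.45e-05 and 0.000250, edgeR).

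Inside the cell, 5 of 6 transducers were tested and 1 was called against untreated, Dact2 (0.67 in Rspo1-negative cells, adjusted p 0.0155, edgeR), which was not called with the GC and length trend removed (0.34, adjusted p 0.262, edgeR). Between the Rspo1 groups 1 transducer was higher in positive cells, Dvl3 (0.50), and 2 lower, Dact2 (-0.79) and Dvl2 (-0.35), of which Dvl3 was called with the trend removed (0.64, adjusted p 0.0221, edgeR). With passage as a block Dvl2 (0.32, adjusted p 0.0367, edgeR) and Dvl3 (-0.39, 0.0333) were also called in Rspo1-negative against untreated cells. No transducer was called higher there once the GC correction was added to the block, and 1 was lower. Of the planar polarity genes 8 of 9 were tested, and Prickle1 was higher in both Rspo1 groups (1.65 and 1.28, adjusted p 0.0137 and 0.0182, edgeR). Among the partners, 4 tested, Tspan12, a tetraspanin that associates with Fzd4, was at 0.84 in Rspo1-positive cells (adjusted p 0.131, edgeR) and passed with the block (0.81, adjusted p 0.0128, edgeR), as it did between the Rspo1 groups (0.50, adjusted p 0.0479, edgeR). No partner was called between the Rspo1 groups once the GC correction was added to the block. Smo, the Hedgehog transducer of the Frizzled class, was higher in Rspo1-negative cells (0.49, adjusted p 0.0235, edgeR), and not called with the GC and length trend removed (0.25, adjusted p 0.223, edgeR). In Rspo1-positive cells Smo passed with the block (0.46, adjusted p 0.0243, edgeR). Of the Wnt target genes, 4 of 6 tested were higher in each Rspo1 group: Axin2, Sp5, Ascl2 and Tcf7. In the block fit 5 of 6 were higher in each, by the addition of Cd44 in Rspo1-positive (0.48, adjusted p 0.0353, edgeR) and of Tnfrsf19 in Rspo1-negative cells (1.21, 0.0321). Cd44 was 0.61 higher in positive than in negative Rspo1 cells (adjusted p 0.0135, edgeR). That call was lost with the GC and length trend removed, where none of the 6 tested targets was called. In Rspo1-negative against untreated cells the largest change of a receptor gene was 2.22, for Fzd9. In that comparison the 6 targets were at 4.87 (Axin2), 4.66 (Sp5), 3.85 (Ascl2), 2.06 (Tcf7), 0.99 (Tnfrsf19) and -0.13 (Cd44).

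In the authors' deposited table for Rspo1-negative against untreated cells, 3 of 9 members had an adjusted p under 0.05, Fzd2 (1.17), Fzd5 (-1.49) and Fzd9 (2.27), where 27.0% of its 15807 genes did. In the authors' deposited table for Rspo1-positive against untreated cells, 4 did, Fzd2 (0.94), Fzd4 (-0.56), Fzd5 (-0.99) and Fzd9 (1.70), where 13.9% of genes did. In the authors' deposited table for Rspo1-positive against Rspo1-negative cells, 2 did, Fzd3 (0.54) and Fzd5 (0.49), where 44.1% of genes did. The Fzd3 value has the opposite sign once the GC and length trend is removed from the counts (-0.60). Beyond the members called in the fit without passage, those tables thus add Fzd2 and Fzd4 in the second comparison and Fzd3 in the last.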

How the data were processed

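Single-end 75 bp reads came from 100 ng RNA; the library kit and strand setting are not given in the sources used here. The submitters' processing notes name Trimmomatic 0.35, FastQC 0.11.2, STAR 2.5.1b, featureCounts, DESeq2 and GRCm38, with no role or order. The authors deposited per library raw read counts and FPKM values for each gene, per the file headers. The deposited FPKM differ from count per length by 1 factor per library. That factor did not simply follow the total count. Relative to the libraries' mean it was 1.29 in the Rspo1-positive library of passage 5, where the total count was 1.12. The authors' deposited comparison tables hold a mean signal (normalised count), log2 fold changes, a test score (Wald statistic), p-values and adjusted p-values. Their model is not given in the sources used here. From the deposited counts, genes were kept by edgeR's filterByExpr (minimum count 10, minimum total 15), which left 17011. They were scaled by TMM and tested by the quasi-likelihood F-test of edgeR, Benjamini-Hochberg adjusted, at 0.05 (R 4.3.3, edgeR 4.0.16, DESeq2 1.42.0, Python 3.11.15), after the code had been tested on simulated data. Groups were fitted on all 9 libraries, and passages with group as a factor. Standard errors are the log2 fold change divided by the square root of F. The GC and length correction used splines with 5 degrees of freedom. Annotation was GENCODE on GRCm38.

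Members and lists were chosen with earlier results of these data known. Named are the 10 members, list genes that were called in a comparison or define a cell type, and for each tested member of mean log2 CPM of at least 0 the 3 genes with the highest Pearson correlation (log2 CPM, prior count 2). Tspan12, Wnt5a, Ror1, Tnfrsf19, the secreted Frizzled-related genes and the antisense gene were named after their values were seen.

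The labels give same-numbered libraries of the groups the same passage. After removing group means, log2 CPM correlated at 0.123 to 0.573 in the 9 same-passage pairs and at -0.476 to 0.0826 in the 18 others, so passage numbers pair the libraries. Blocked values stand beside results whose call they change. Depth limits Fzd9 (13 to 81 counts) and Fzd10 (0 to 11).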

Additional observations from a re-analysis of the deposited data

Results flagged for a closer look

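Fzd5 is listed for a closer look because its difference from untreated cells was not the same in the Rspo1 groups, by a direct test. All untreated cells were tdTomato-negative, so a change with Rspo1 within tdTomato-positive cells was not measured. The fall against untreated cells was 1.51 on the log2 scale in tdTomato-negative and 1.0 in tdTomato-positive cells, and the difference was 0.51 (SE 0.162, n = 3 per group, adjusted p 0.0417, quasi-likelihood test of edgeR). Both changes use the same untreated libraries, so the difference is the direct comparison of the Rspo1 groups. It was positive at 3 of 3 passages, and its adjusted p ranged from 0.0178 to 0.238 over 13 alternatives, of which 9 lost the call. With the GC and length trend removed the difference was 0.31 (adjusted p 0.238, edgeR).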

How the results depend on the processing

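Against untreated cells, the calls of Fzd5 in both Rspo1 groups and of Fzd9 in the Rspo1-negative group held in all 13 alternatives run, as did those of Fzd6 and of Fzd4 between passages 5 and 10 in all 10. In Rspo1-positive against untreated cells the 886 genes called became 1506 with DESeq2, 1446 with no filter, 2247 with the replicate block and 2780 with block and GC correction together. Frizzled members called there went from 2 to 1 with only the 6 libraries compared and to 4 with block and GC correction, and to between 1 and 3 (all genes 390 to 899) without 1 library. Between the Rspo1 groups the 4141 genes became 1419 with the GC correction and 6624 with the block, and 2061 to 4068 without 1 library. Its 1 member became 0 with the GC correction, with no filter and with upper-quartile scaling, 3 with the block, 2 with block and GC correction, and 0 to 1 without 1 library. In Rspo1-negative against untreated cells the 3724 genes became 1345 with the GC correction, 2299 with only 6 libraries, 6039 with the block and 1800 to 3772 without 1 library. Its 3 members became 2 with the GC correction, 5 with the block and 4 with both. From passage 5 to 6 the 423 genes became 851 with DESeq2, 1193 with no filter and 105 to 846 without 1 library, and members called went from 0 to 1 (Fzd4) with DESeq2, the GC correction and no filter. With no filter the 1543 genes from passage 5 to 10 became 2784 and the 1438 from 6 to 10 became 2456. Without 1 library they were 405 to 702 and 548 to 1460, with 1 to 2 members in the latter.

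Signs turned only in comparisons where the member was not called before any alternative was applied. Some turned values were themselves called in the block fit with GC correction. These were Fzd3 in both comparisons with the Rspo1-negative group, and Fzd4 between the Rspo1 groups. The block fit without that correction called Fzd3 with the opposite sign in both. Between the Rspo1 groups Fzd3 was -0.60 with the GC correction and -0.61 with block and GC correction. Fzd4 there was -0.022 with DESeq2, -0.53 with the GC correction, -0.028 with no filter, -0.050 with the block, -0.57 with block and GC correction and -0.040 with upper-quartile scaling. In Rspo1-negative against untreated cells Fzd1 was -0.11 with the GC correction, alone or with the block, Fzd3 0.50 and 0.51, and Fzd6 0.017 with the GC correction. From passage 5 to 6 Fzd1 was -0.0016 with DESeq2, -0.015 with the GC correction and -0.018 with no filter, and Fzd7 -0.021 and -0.0096 with the latter 2. From passage 5 to 10 Fzd1 was -0.051 with the GC correction and -0.0017 with no filter, and from 6 to 10 -0.037 with the GC correction. Without 1 library, Rspo1-positive against untreated values ranged from -0.13 to 0.13 for Fzd3, -0.30 to 0.48 for Fzd6 and -0.46 to 0.030 for Fzd8. Between the Rspo1 groups they ranged from -0.49 to 0.26 for Fzd4, -0.12 to 0.67 for Fzd6 and -0.11 to 0.30 for Fzd7. In Rspo1-negative against untreated cells they ranged from -0.034 to 0.13 for Fzd1, -0.58 to 0.20 for Fzd6 and -0.16 to 0.33 for Fzd8. From passage 5 to 6 they ranged from -0.10 to 0.093 for Fzd1, -0.00080 to 0.45 for Fzd2, -0.031 to 0.29 for Fzd5, -0.11 to 0.18 for Fzd7 and -0.24 to 0.30 for Fzd8. From 5 to 10 they ranged from -0.11 to 0.17 for Fzd1, -0.21 to 0.064 for Fzd5 and -0.28 to 0.22 for Fzd8, and from 6 to 10 from -0.13 to 0.16 for Fzd1 and -0.40 to 0.20 for Fzd8. The cause was not tested. The low counts of Fzd9 and Fzd10 limit their precision.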
